A study of Homo sapiens with 12 samples.

Results

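Conjugation enzymes attach glutathione, glucuronic acid or sulfate to drugs, hormones, bile acids and reactive metabolites. Genes of the 3 superfamilies, glutathione S-transferases (GST), UDP-glucuronosyltransferases (UGT) and cytosolic sulfotransferases (SULT), were taken by symbol from the table of read counts. Names ending in P, or in P and a number, were set aside as pseudogenes. The rule returned 54 of 26364 genes, of which 20 were GST genes, 21 UGT genes and 13 SULT genes. Read to the letter it also set aside GSTP1, the pi class enzyme, and it did not reach UGT8, a galactosyltransferase of the same family. GSTP1 had at most 3 reads in a library and UGT8 at most 1, so neither would have been tested.

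The libraries were made from HepG2 cells, a single cell line derived from a human liver cancer, at 0, 5, 10, 30 and 240 min of insulin, with 2 replicates at each time. Cells had been kept in physiologic insulin, which was then washed out before stimulation. No library without insulin was taken at a later time. In each comparison with 0 min, insulin therefore cannot be told apart from time since the washout. The titles give the times used here, whereas the treatment text deposited with the libraries names 3 nM insulin and 5 min throughout, also for the 0 min libraries. A further HepG2 library holds chromatin bound by the insulin receptor (IR), and an input library goes with it. The treatment text of both names 3 nM insulin and gives no time.

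GSTs join glutathione to electrophiles. Alpha, mu, theta, omega and zeta class enzymes are cytosolic, the kappa class enzyme sits in mitochondria and peroxisomes, and the MGST proteins are a separate family of membrane enzymes. UGTs lie in the endoplasmic reticulum, and the UGT1A and UGT2 enzymes use UDP-glucuronate. The UGT1A enzymes are spliced from 1 locus in which variable first exons share their last exons, and the UGT2 enzymes come from a gene cluster. SULTs are cytosolic and use the activated sulfate PAPS. Liver is a main site of all these reactions, which make their substrates more soluble and ready for export.

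Between 18347109 and 45005769 reads per library were counted on genes. The hepatocyte markers were high throughout, with ALB at a mean of 19643 TPM (a level scaled for library size and gene length) and the other 8 reported genes of the list at 216 TPM or more. Their summed level was 48870 and 49570 TPM in the libraries at 0 min and 40440 and 50220 at 240 min. Of these 9 genes, 1 was called at 240 min, HNF4A, which was higher. PTPRC and CD3E of immune cells were at 0 TPM in the 10 libraries. CDH5 of endothelium, COL3A1 of fibroblasts and KRT7 of bile ducts had means of at most 0.108 TPM, while KRT19 (mean 698 TPM), EPCAM (419), SOX9 (275), ACTA2 (77.7) and CD68 (54.7) were present. Of the 15 markers of other cell types 10 were tested, and at 240 min SOX9 was higher (0.15 on the log2 scale) and ACTA2 (-0.30) and PDGFRB (-0.53) lower, with a summed level of 1485 and 1532 TPM in the libraries at 0 min and 1493 and 1689 at 240 min. Their part in the results was not tested. Chi-square values per degree of freedom between replicates ran from 2.86 to 6.46, above sampling noise. The methods describe the samples as biologically independent and the experiment as done once, so the tests measure the spread between samples of a single experiment. In whole-culture RNA, fewer cells with a transcript cannot be told apart from less transcript per cell.

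Of the 54 members, 33 reached a mean of 1 TPM, namely 18 GST, 7 UGT and 8 SULT genes. The membrane enzyme MGST1 was highest at a mean of 416 TPM (369.9 to 467 over the 10 libraries), followed by MGST2 at 309 TPM (279 to 332). The omega class GSTO1 stood at 231 TPM (208 to 254). UGT2B10, which glucuronidates tertiary amines such as nicotine, stood at 224 TPM (193 to 269). SULT2A1, which sulfates dehydroepiandrosterone and bile acids, stood at 174 TPM (142 to 196). UGT2A3 followed at 155 TPM (139 to 169). MGST1, MGST2 and GSTO1 did not overlap, while each of GSTO1, UGT2B10, SULT2A1 and UGT2A3 overlapped with the next in this order. The theta class GSTT1 had 124 TPM (111 to 132). The phenol sulfotransferase SULT1A1 and the kappa class GSTK1 had the same mean of 114 TPM, over 98.6 to 127 and 108 to 122, so that these 3 overlapped. GSTA4, which acts on 4-hydroxynonenal, followed at 63.9 TPM (59.5 to 76.9). The 6 highest members held 63.1% to 66.6% of the members' summed TPM in a library.

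**Figure D1:**
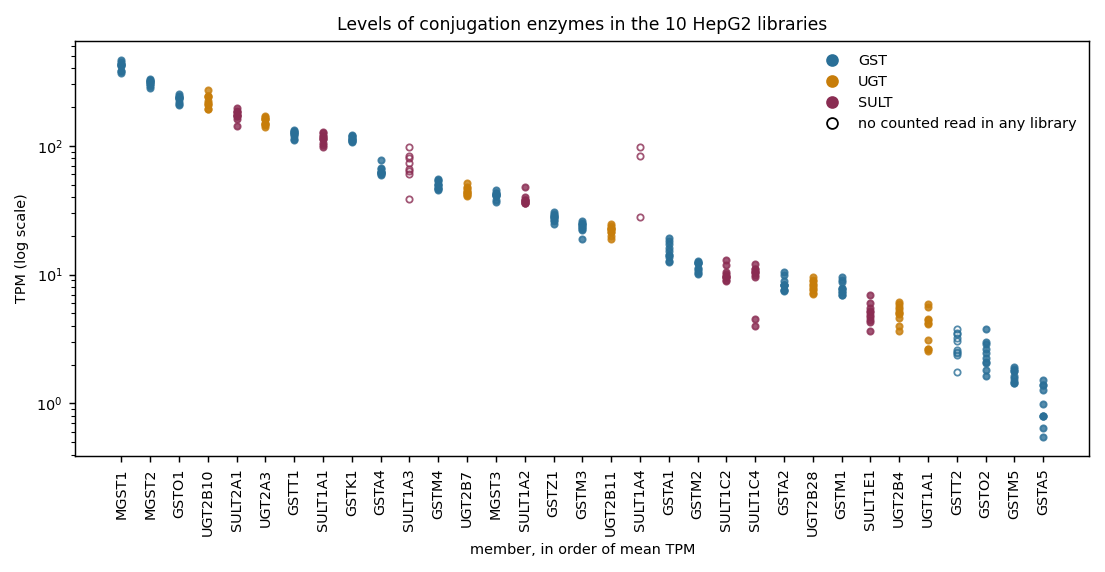
TPM of the 33 members with a mean of at least 1 TPM, on a log axis, with 1 point per library and members in order of their mean. Libraries at 0 TPM are not drawn, so SULT1A4 shows 3 points and SULT1A3 8. Open symbols mark members without a counted read in any library, and MGST1 stands highest at a mean of 416 TPM.

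A further 21 members stayed below a mean of 1 TPM, among them UGT1A3 to UGT1A10, both UGT3A genes, SULT1C3, SULT2B1, SULT4A1 and SULT6B1. UGT1A1, the enzyme of bilirubin glucuronidation, was the highest UGT1A member at 3.97 TPM (2.55 to 5.95). Of all members 11 had no counted read in any library. Taken alone, a count of 0 in 1 library allows up to 3 reads by counting error, and 0 in all 10 libraries allows fewer per library. After edgeR's filter on low counts 29 members were tested (14 GST, 8 UGT and 7 SULT genes), and 25 were not.

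Counted reads and TPM came apart for some members, several of which share sequence with another gene. SULT1A3 and SULT1A4, which sulfate dopamine and are near-identical copies, had 0 counted reads in every library. Both are also listed with the same span, chr16:29471207-30215650 in hg19, and why no read was counted was not tested. SULT1A3 nevertheless stood at a mean of 56.2 TPM and SULT1A4 at 21.0 TPM in the deposited abundances. SULT1A3 was at 0 TPM in 2 libraries and SULT1A4 in 7, and in 9 of 10 libraries 1 of the copies held the whole sum. That sum ran from 38.4 TPM in 5 min replicate 1 to 98.7 TPM in 10 min replicate 1. Of the 50-base stretches in the coding transcripts of these genes, 94.3% in SULT1A3 and 99.1% in SULT1A4 also occur in a transcript of another gene, against 24.7% in SULT1A1 and 22.1% in SULT1A2. Reads were taken as 50 bases long from the methods, whereas the extraction text deposited with these libraries names 75 bases, and that of the IR library 50. The first 60 coding bases of the 4 SULT1A genes, read from GRCh37 at chr16:28620117-28620176 (SULT1A1, minus strand), chr16:28607192-28607251 (SULT1A2, minus strand), chr16:30212050-30212109 (SULT1A3, plus strand) and chr16:29472707-29472766 (SULT1A4, plus strand), are shown since a 50-base read from within them is the same in 3 of the genes, and capitals mark the 2 bases of SULT1A2 that are unlike SULT1A1.
SULT1A1: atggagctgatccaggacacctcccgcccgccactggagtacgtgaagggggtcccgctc
SULT1A2: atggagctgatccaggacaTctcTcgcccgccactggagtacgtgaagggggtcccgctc
SULT1A3: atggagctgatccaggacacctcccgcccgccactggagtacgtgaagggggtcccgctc
SULT1A4: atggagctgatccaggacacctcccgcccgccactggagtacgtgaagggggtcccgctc

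Some other members also had few counted reads for their TPM. GSTM1 shared 52.8% of its stretches with another gene and had 1 to 6 counted reads per library at a mean of 7.94 TPM. UGT2B28 shared 34.3% and had 4 to 22 reads at 8.20 TPM. GSTT2 had 0 counted reads at 2.87 TPM, and is listed with its copy GSTT2B at 2 overlapping places of chromosome 22. GSTM5 and GSTA5, which shared 9.47% and 6.76%, had at most 1 read at 1.49 and 1.02 TPM. UGT1A1 shared 49.6% of its stretches, chiefly with UGT1A10, and had 25 to 82 reads. Its CPM (counted reads scaled to library size) per TPM was 0.399, beside 0.399 for GSTO1 and 1.66 for GSTM3, which shared 2.10% and 2.01%. CPM is not scaled for gene length, as TPM is. The ratio therefore also depends on length, and it does not show whether UGT1A1 lost reads. GSTA4, GSTK1, GSTT1, MGST1, MGST2 and SULT1C2 shared no stretch with another named gene, and GSTM3, GSTO1, SULT1C4, SULT2A1 and UGT2A3 shared at most 2.10%. UGT2B10 shared 21.6%, chiefly with the pseudogene UGT2B27P, and is listed at 2 places, chr4:69681711-69697735 (plus strand) and chr4:69870295-69886115 (minus strand) in hg19. Levels of GSTM1, GSTM2, GSTM5, GSTT2, GSTA1, GSTA2 and GSTA5 are therefore uncertain as values of single genes. So are those of the SULT1A genes, the UGT1A genes, UGT2B10, UGT2B11, UGT2B15, UGT2B17 and UGT2B28.

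**Figure D2:**
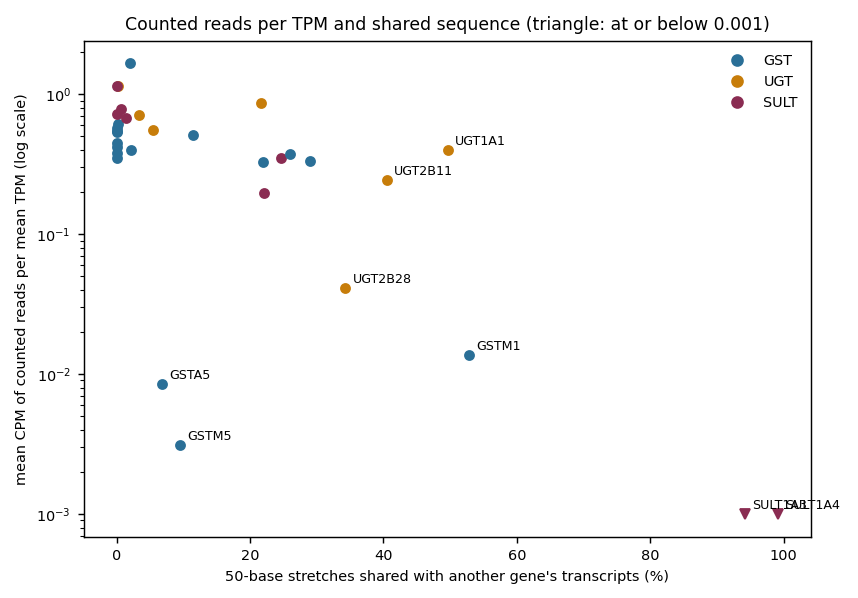
Mean CPM (counted reads scaled to library size) divided by mean TPM, on a log axis, against the percent of a member's 50-base stretches that occur in another gene, for the members with a mean of at least 1 TPM other than GSTT2. SULT1A3 and SULT1A4, drawn as triangles, share 94.3% and 99.1% and have no counted read, and GSTM1 at 52.8% lies at 0.0137 CPM per TPM. The ratio also depends on gene length, for which CPM is not scaled.

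At 240 min of insulin, 7 of the 29 tested members passed the test against 0 min, with 3 higher and 4 lower. Over the 13852 genes tested, 41.0% were called in this comparison, with 20.6% higher and 20.4% lower. SULT genes made up 4 of the 7 (4 of 7 tested), GST genes 3 (3 of 14) and UGT genes none (0 of 8, with 2 at an unadjusted p under 0.05). The median log2 fold change of the 29 members was -0.04, beside -0.0026 over all genes tested. SULT1C4 moved by far the most, falling to 0.382 times its 0 min level. The other 6 lay between 0.816 and 1.33 times. Scaling by the ERCC spike-ins, RNA of known amount added to each sample, moved the median of all genes by -0.12 on the log2 scale and left 1 member called, SULT1C4, so that the split became 0 higher and 1 lower. Under DESeq2 5 members were called.

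**Figure D3:**
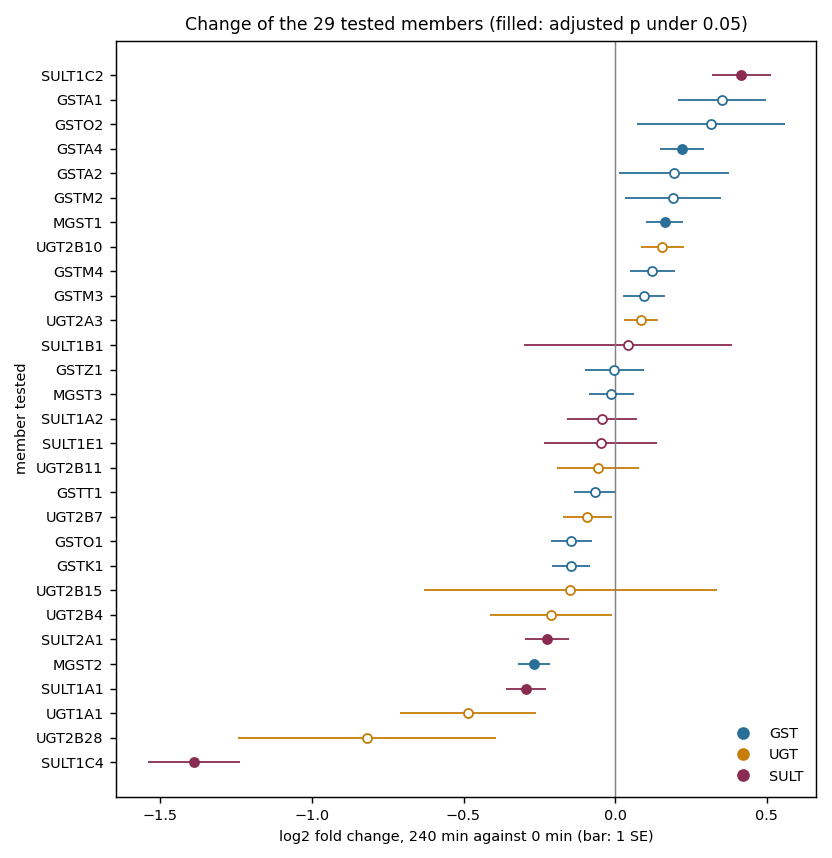
Log2 fold change at 240 min against 0 min for the 29 tested members, with bars of 1 SE from edgeR's quasi-likelihood test, 2 libraries per time. Filled points mark the 7 members with an adjusted p under 0.05, of which SULT1C4 at -1.39 lies farthest from 0.

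Among the sulfotransferases, SULT1C4 is an enzyme known chiefly from fetal liver and lung. It had CPM values of 7.33 and 7.52 (0 min), 6.49 and 8.38 (5 min), 7.46 and 6.77 (10 min), 7.14 and 6.99 (30 min) and 2.72 and 3.00 (240 min). Both libraries at 240 min lay below the other 8, which ran from 6.49 to 8.38 CPM. The log2 fold change at 240 min was -1.39 ± 0.152 (SE, adjusted p = 7.34e-07) by the quasi-likelihood test of edgeR, adjusted by Benjamini-Hochberg over all genes, and it kept its call in each of the 21 alternatives tried. Against 30 min it was -1.32 ± 0.158 (SE, adjusted p = 2.22e-06). Counts behind these values were 57 to 335 reads per library.

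Its neighbour SULT1C2 moved the other way. SULT1C2 acts on small phenols and is likewise expressed in fetal tissues. It had CPM values of 10.5 and 11 (0 min), 10.9 and 10.8 (5 min), 11.1 and 10.4 (10 min), 11.5 and 11.5 (30 min) and 15.5 and 13.2 (240 min). Both 240 min libraries lay above the other 8, with replicate 1 the higher. The log2 fold change was 0.42 ± 0.0974 (SE, adjusted p = 0.00205) by edgeR, and 0.32 ± 0.100 (SE, adjusted p = 0.0153) against 30 min. Leaving out 240 min replicate 1 ended the first call (0.28, adjusted p = 0.0827). The second was lost by DESeq2 (adjusted p = 0.0730) and without 30 min replicate 1 or 240 min replicate 1. SULT1C2 lies at chr2:108905095-108926371 and SULT1C4 at chr2:108994421-109004270 in hg19, both on the plus strand, with no member between them. SULT1C3, at chr2:108863651-108881807, had 1 read in the 10 libraries together.

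SULT1A1 had CPM values of 44.5 and 43.2 (0 min), 38.4 and 35.9 (5 min), 39.9 and 42.8 (10 min), 41.03 and 38.8 (30 min) and 34.5 and 37.1 (240 min). Both 0 min libraries were the highest of the 10, and replicate 1 at 240 min was the lowest. At 240 min its log2 fold change was -0.29 ± 0.0650 (SE, adjusted p = 0.00127) by edgeR. With the counted reads of the SULT1A genes summed it was -0.25 ± 0.0607 (SE, adjusted p = 0.00246). SULT1A3 and SULT1A4 added no read to that sum, which holds SULT1A1 and SULT1A2 only. Against 30 min SULT1A1 gave -0.16 ± 0.0669 (SE, adjusted p = 0.0614), which did not pass.

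SULT2A1 had CPM values of 138 and 143 (0 min), 144 and 154 (5 min), 135 and 129 (10 min), 144 and 131 (30 min) and 132 and 108 (240 min). Replicate 2 at 240 min was the lowest library, whereas replicate 1 at 240 min (132 CPM) lay above 10 min replicate 2 and 30 min replicate 2. By edgeR the change was -0.23 ± 0.0719 (SE, adjusted p = 0.0170) on the log2 scale against 0 min, where the groups did not overlap, and -0.19 ± 0.0726 (SE, adjusted p = 0.0404) against 30 min, where they did. Without 240 min replicate 2 the call against 0 min was lost (-0.09, adjusted p = 0.313), as it was without 0 min replicate 2 and with limma on TPM (adjusted p of at most 0.104). The call against 30 min was lost with limma, with only the times compared, and without any 1 of 10 min replicate 2, 30 min replicate 1 and 240 min replicate 2. SULT1A2, SULT1B1, the thyroid hormone sulfotransferase, and SULT1E1, the oestrogen sulfotransferase, were tested and did not pass at 240 min, with log2 fold changes of -0.04, 0.04 and -0.05.

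**Figure D4:**
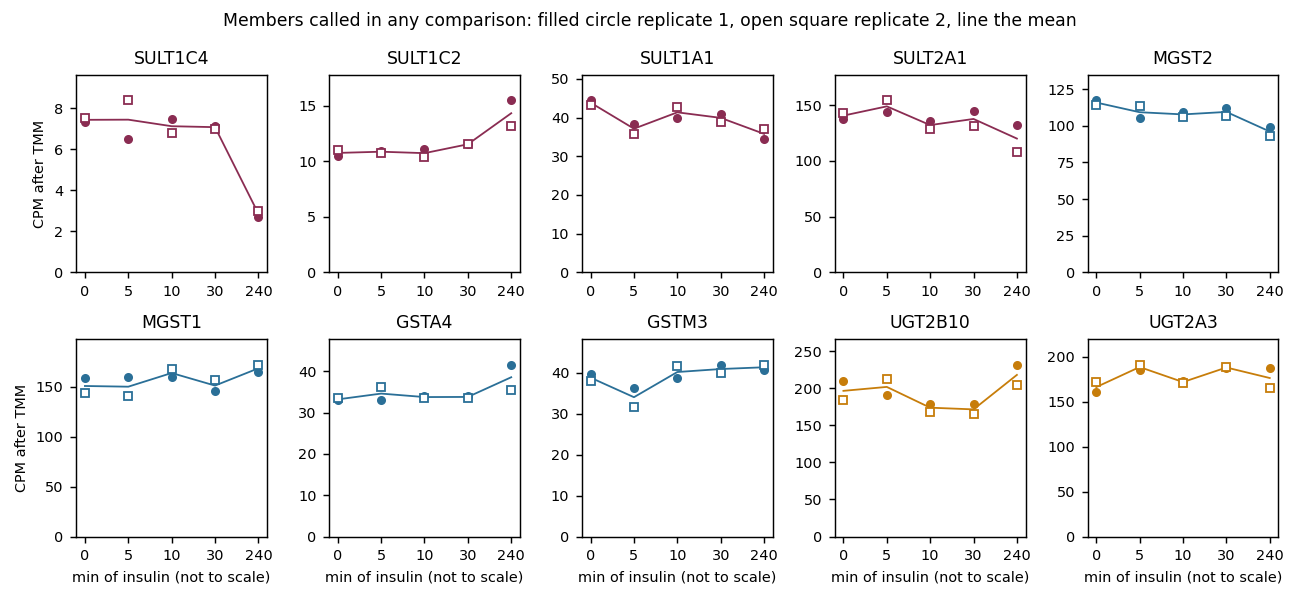
CPM after TMM scaling of the 10 members called in any comparison, against min of insulin (times evenly spaced, each vertical axis from 0). Filled circles are replicate 1, open squares replicate 2 and lines the mean, and SULT1C4 at 240 min falls from about 7 CPM to 2.72 and 3.00.

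The membrane GSTs moved in opposite directions. MGST1, which protects membranes of the endoplasmic reticulum and mitochondria, had CPM values of 158 and 143 (0 min), 159.7 and 141 (5 min), 159.7 and 168 (10 min), 146 and 156 (30 min) and 165 and 172 (240 min). Its libraries at 0 and 240 min did not overlap, but 10 min replicate 2 (168 CPM) lay between both 240 min libraries. The log2 fold change at 240 min was 0.16 ± 0.0622 (SE, adjusted p = 0.0429) by edgeR, close to the threshold. It was lost without any 1 of 0 min replicate 2, the 10 min libraries and the 240 min libraries, where adjusted p rose to at most 0.420, and also by DESeq2, by limma and after thinning to the smallest library (adjusted p of at most 0.0833).

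MGST2, which can also join glutathione to leukotriene A4, had CPM values of 117 and 114 (0 min), 105 and 113 (5 min), 109 and 106 (10 min), 112 and 107 (30 min) and 99.2 and 92.9 (240 min). Both 240 min libraries lay below the other 8. By edgeR the change was -0.27 ± 0.0529 (SE, adjusted p = 0.000484) on the log2 scale against 0 min and -0.19 ± 0.0536 (SE, adjusted p = 0.00929) against 30 min. The latter was lost without 30 min replicate 1 or 240 min replicate 2. MGST3, the remaining membrane enzyme, gave -0.01 and did not pass.

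Of the cytosolic GSTs, GSTA4 had CPM values of 32.99 and 33.5 (0 min), 33.1 and 36.2 (5 min), 33.9 and 33.7 (10 min), 33.96 and 33.7 (30 min) and 41.7 and 35.5 (240 min). Replicate 1 at 240 min stood highest, and replicate 2 at 240 min lay below 5 min replicate 2. On the log2 scale it changed by 0.22 ± 0.0722 (SE, adjusted p = 0.0195) against 0 min and 0.20 ± 0.0738 (SE, adjusted p = 0.0420) against 30 min by edgeR. Without 240 min replicate 1 the first was 0.09 (adjusted p = 0.436), and it was also lost without either 0 min library and by DESeq2 (adjusted p = 0.0585). The second was lost by DESeq2, after thinning, with only the times compared, and without any 1 of the 0, 10 and 30 min libraries or 240 min replicate 1. The related GSTA1 gave 0.35 ± 0.146 (SE, adjusted p = 0.0612), and the sum of GSTA1, GSTA2, GSTA3 and GSTA5, which share sequence, gave 0.30 ± 0.111 (SE, adjusted p = 0.0359). GSTA3 and GSTA5 added at most 2 and 1 reads in a library to that sum.

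GSTM3, a mu class enzyme, had CPM values of 39.7 and 37.9 (0 min), 36.4 and 31.7 (5 min), 38.7 and 41.7 (10 min), 41.9 and 39.9 (30 min) and 40.7 and 42.01 (240 min). Its lowest libraries were those at 5 min, and those at 240 min lay within the range of the 10 and 30 min libraries or just above. It passed the test of any difference over the 5 times (adjusted p = 0.0224) with edgeR but no single comparison, at -0.18 at 5 min and 0.09 at 240 min, and with ERCC scaling the 240 min value changed sign to -0.03. The call over the 5 times was lost by DESeq2, by limma, with ERCC scaling and without 5 min replicate 2.

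GSTO1, which reduces dehydroascorbate, had CPM values of 104 and 91.9 (0 min), 92.04 and 84.1 (5 min), 96.7 and 97.6 (10 min), 93.5 and 85.8 (30 min) and 83.3 and 93.3 (240 min). Values at 0 and 240 min overlapped, and the log2 fold change of -0.15 ± 0.0674 (SE, adjusted p = 0.0923) did not pass. GSTT1, which acts on small halogenated compounds, had CPM values of 53.4 and 52.2 (0 min), 50.95 and 45.99 (5 min), 54.1 and 54.1 (10 min), 51.1 and 52.2 (30 min) and 46.5 and 54.6 (240 min). Replicate 1 at 240 min was lower than both 0 min libraries and replicate 2 higher, with a log2 fold change of -0.07 ± 0.0684 (SE, adjusted p = 0.462). GSTK1 had CPM values of 49.4 and 54.7 (0 min), 49.4 and 50.4 (5 min), 50.97 and 54.1 (10 min), 53.3 and 49.3 (30 min) and 48.2 and 46.3 (240 min). Both 240 min libraries were the lowest of the 10, yet the log2 fold change of -0.15 ± 0.0633 (SE, adjusted p = 0.0734) did not pass. GSTZ1, which isomerizes maleylacetoacetate in tyrosine breakdown, gave -0.0034 ± 0.0976, GSTM4 0.12, GSTM2 0.19 and GSTO2 0.31, none of which passed.

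Among the UGTs, UGT2B10 had CPM values of 209 and 184 (0 min), 191 and 212 (5 min), 179 and 168 (10 min), 178 and 165 (30 min) and 232 and 204 (240 min). Libraries at 10 and 30 min were the lowest, from 165 to 179 CPM, and those at 0 and 240 min overlapped. The log2 fold change was 0.16 ± 0.0698 (SE, adjusted p = 0.0829) at 240 min against 0 min, -0.17 at 10 min and -0.19 at 30 min, none of which passed. Between 30 and 240 min it rose by 0.35 ± 0.0705 (SE, adjusted p = 0.000634) by edgeR, the only UGT called in that comparison. With the counted reads of the UGT2B genes summed, most of which are those of UGT2B10, this rise was 0.31 ± 0.0698 (SE, adjusted p = 0.00167).

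UGT2A3 had CPM values of 161 and 172 (0 min), 186 and 191 (5 min), 173 and 170.2 (10 min), 187 and 189 (30 min) and 187 and 165 (240 min). Both 0 min libraries were below the 5 and 30 min libraries, while the 240 min libraries spanned much of the range. It passed the test of any difference (adjusted p = 0.0392, edgeR) but no single comparison, at 0.18 at 5 min, 0.18 at 30 min and 0.09 at 240 min, where ERCC scaling turned the sign (-0.03). The call over the 5 times was lost without 0 min replicate 1, without any 1 of the 5, 10 and 30 min libraries, after thinning, with ERCC scaling and by limma.

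The other 6 tested UGTs did not pass at 240 min. UGT2B7, which glucuronidates morphine and bile acids, gave -0.09 ± 0.0803, UGT2B11 -0.06 ± 0.136 and UGT2B4 -0.21 ± 0.201. UGT1A1 gave -0.49 ± 0.224 and the UGT1A sum -0.44 ± 0.214 (SE, adjusted p = 0.105). Both 240 min values of that sum (1.48 and 1.47 CPM) lay below both at 0 min (2.00 and 2.02). UGT2B15 and UGT2B28, with at most 15 and 22 reads in a library, gave -0.15 ± 0.483 and -0.82 ± 0.426.

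No member was called at 5, 10 or 30 min against 0 min, where 0%, 0.137% and 0.332% of all genes were. By edgeR 5, 2 and 4 members had an unadjusted p under 0.05 at these times, beside 1976, 710 and 1125 of the 13852 genes, and DESeq2 and limma also called 0. At 5 min 22 of 29 log2 fold changes were below 0, with a median of -0.05, beside 6924 of 13852 with a median of 8.43e-05 over all genes. All comparisons with 0 min share the 0 min libraries. Between 30 and 240 min, where those libraries entered the model but not the contrast, 6 of 29 members were called, beside 38.2% of all genes (19.8% higher and 18.4% lower), with 3 higher (UGT2B10, SULT1C2 and GSTA4) and 3 lower (SULT1C4, MGST2 and SULT2A1). ERCC scaling left 0 higher and 1 lower, SULT1C4. Without 30 min replicate 1, 2 members were called, SULT1C4 and UGT2B10. In the test of any difference over the 5 times 8 members were called, beside 38.3% of all genes, namely SULT1C4, UGT2B10, MGST2, SULT1C2, SULT1A1, SULT2A1, GSTM3 and UGT2A3. Without 5 min replicate 2, 5 were called, and limma on the TPM values called 2 or 3.

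Promoters were read from RefSeq on GRCh38.p14 for 43 of the 54 members, with 48 starts. Of the called members, MGST2 and SULT1A1 were not matched. Letters of 4 motifs were searched on both strands in the 250 bases before each start. Those before the oppositely moving neighbours SULT1C2 (chr2:108288645-108288894, plus strand) and SULT1C4 (chr2:108377704-108377953, plus strand), and before GSTA4 (chr6:52995285-52995534, minus strand) and SULT2A1 (chr19:47886316-47886565, minus strand), are shown as examples of called members that hold 1 of the motifs, given in capitals.
SULT1C2: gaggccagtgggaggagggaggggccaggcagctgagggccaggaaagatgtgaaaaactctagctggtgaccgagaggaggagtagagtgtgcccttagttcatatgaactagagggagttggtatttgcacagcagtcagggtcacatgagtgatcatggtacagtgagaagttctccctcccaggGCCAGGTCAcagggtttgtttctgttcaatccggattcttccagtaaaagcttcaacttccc
SULT1C4: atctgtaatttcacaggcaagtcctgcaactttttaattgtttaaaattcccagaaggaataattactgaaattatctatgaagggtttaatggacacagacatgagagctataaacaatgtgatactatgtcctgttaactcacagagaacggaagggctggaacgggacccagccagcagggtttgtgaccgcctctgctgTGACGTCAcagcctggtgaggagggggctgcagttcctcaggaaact
GSTA4: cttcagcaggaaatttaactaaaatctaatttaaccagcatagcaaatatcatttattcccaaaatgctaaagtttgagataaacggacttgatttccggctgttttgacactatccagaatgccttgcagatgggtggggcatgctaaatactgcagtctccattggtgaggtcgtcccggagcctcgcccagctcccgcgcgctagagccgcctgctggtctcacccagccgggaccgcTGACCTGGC
SULT2A1: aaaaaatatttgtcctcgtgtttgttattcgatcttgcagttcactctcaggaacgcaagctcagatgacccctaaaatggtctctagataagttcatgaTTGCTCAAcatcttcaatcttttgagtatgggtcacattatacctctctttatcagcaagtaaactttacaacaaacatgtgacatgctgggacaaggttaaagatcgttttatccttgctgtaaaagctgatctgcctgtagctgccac

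SULT1C2 and GSTA4 hold TGACNNNGC, the core of the antioxidant response element that NRF2 binds, 62 to 54 and 9 to 1 bases before the start. This core stood in 10.9% of 35116 promoters and in 9 of the 48 of members, among them those of UGT2B10, also called between 30 and 240 min, and GSTO1, which was not called. SULT1C4 holds TGACGTCA, the cAMP response element, 47 to 40 bases before the start, found in 1.65% of all promoters and in no other member. That motif was added after the sequences had been read. SULT2A1 holds TTGCNNAA, letters of the C/EBP site, 150 to 143 bases before the start, found in 9.05% of all and in 6 of 48. GTAAACA, a FOXO site, was found in 2.98% of all and in 2 of 48. TGACNNNGC and TGACGTCA both begin with TGAC, but no stretch matches both from the same TGAC. A match is a likeness of letters, and binding was not measured.

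Genes that supply cofactors, carry conjugates and regulate these enzymes were examined in the same fit. Of 52 such genes 45 were tested. At 5, 10 and 30 min none was called by edgeR, with 5, 3 and 2 at an unadjusted p under 0.05 and 0 by DESeq2 and limma. At 240 min 25 were called, with 16 higher and 9 lower, beside 41.0% of all genes, and ERCC scaling left 1 higher and 0 lower.

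Of 8 tested genes of glutathione supply, 4 rose and 2 fell. GCLM, the modifier subunit of the enzyme that starts glutathione synthesis, had 41.2 ± 2.29 CPM at 0 min and 63.9 ± 1.76 at 240 min (SD, n = 2) and a log2 fold change of 0.64 ± 0.0627 (SE, adjusted p = 1.89e-07) by edgeR. GGCT, which cleaves gamma-glutamyl dipeptides, gave 0.44 ± 0.0751 (SE, adjusted p = 0.000114). GSR and GCLC also rose. GGT1, which breaks down glutathione outside the cell, gave -0.26 ± 0.0969 (SE, adjusted p = 0.0378), and OPLAH, which opens 5-oxoproline, -0.27 ± 0.0947 (SE, adjusted p = 0.0267). The calls of GGT1 and OPLAH were kept in 11 and 14 of 21 alternatives.

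Of 4 genes listed with UDP-glucuronate supply and transport, among them the glucuronidase gene GUSB, 2 rose and 1 fell. UGDH, which makes UDP-glucuronate, had 392 ± 45.3 CPM at 0 min and 501 ± 5.76 at 240 min (SD, n = 2) and a log2 fold change of 0.36 ± 0.0637 (SE, adjusted p = 0.000173) by edgeR. SLC35D1, which carries it into the endoplasmic reticulum, gave 0.24 ± 0.0523 (SE, adjusted p = 0.00131). UGP2, which makes UDP-glucose, gave -0.14 ± 0.0472 (SE, adjusted p = 0.0234), a call kept in 15 of 21 alternatives.

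Of 10 genes listed with sulfate activation, 3 rose and 2 fell. That list also holds transporters, phosphatases of the spent cofactor and genes tied to sulfatases. SLC26A1, a sulfate transporter, had 10.4 ± 1.42 CPM at 0 min and 15.9 ± 0.733 at 240 min (SD, n = 2) and a log2 fold change of 0.65 ± 0.126 (SE, adjusted p = 0.000406) by edgeR. IMPAD1, a phosphatase that removes the spent cofactor in the Golgi, gave 0.40 ± 0.0461 (SE, adjusted p = 1.51e-06), whereas BPNT1, its cytosolic counterpart, gave -0.32 ± 0.0667 (SE, adjusted p = 0.000711). SUMF1, which activates sulfatases, gave -0.18 ± 0.0634 (SE, adjusted p = 0.0314), a call kept in 12 of 21 alternatives. The PAPS synthases PAPSS1 and PAPSS2 did not pass, at -0.02 and -0.30.

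Of 7 efflux pumps, 1 rose and 2 fell. ABCC4 gave 0.41 ± 0.0711 (SE, adjusted p = 0.000135) by edgeR. ABCC2, the pump of the bile canaliculus, had 665 ± 11.3 CPM at 0 min and 558 ± 23.7 at 240 min (SD, n = 2) and a log2 fold change of -0.25 ± 0.0482 (SE, adjusted p = 0.000327). ABCC5 gave -0.32 ± 0.0713 (SE, adjusted p = 0.00131).

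Each of the 4 tested genes of other conjugation reactions passed, 3 higher and 1 lower, and the other 6 of that list were too low to test. TPMT, a thiopurine methyltransferase, had 51.2 ± 0.328 CPM at 0 min and 69.4 ± 1.90 at 240 min (SD, n = 2) and a log2 fold change of 0.44 ± 0.0581 (SE, adjusted p = 6.64e-06) by edgeR. The acetyltransferase NAT2 gave 1.06 ± 0.404 (SE, adjusted p = 0.0422) at 0.343 ± 0.0402 and 0.683 ± 0.222 CPM. NAT2 had at most 21 reads in a library, was not called by DESeq2, and kept its call in 7 of 19 alternatives. NAT1 gave 0.32 ± 0.126 (SE, adjusted p = 0.0485), close to the threshold. BAAT, which joins bile acids to glycine or taurine, gave -0.25 ± 0.0714 (SE, adjusted p = 0.00921), a call kept in 16 of 21 alternatives.

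Of 12 regulators, 3 rose and 1 fell. CEBPA, a hepatocyte transcription factor, had 18.5 ± 0.524 CPM at 0 min and 40.4 ± 2.18 at 240 min (SD, n = 2) and a log2 fold change of 1.12 ± 0.0882 (SE, adjusted p = 1.31e-08) by edgeR, and it was the 1 gene of these lists called with ERCC scaling. HNF4A gave 0.30 ± 0.0504 (SE, adjusted p = 0.000101). NFE2L2, which encodes NRF2, gave 0.18 ± 0.0506 (SE, adjusted p = 0.00845), a call kept in 18 of 21 alternatives. ARNT, the partner of the aryl hydrocarbon receptor, gave -0.37 ± 0.0561 (SE, adjusted p = 2.79e-05). AHR, NR1I2 (the pregnane X receptor) and NR1I3 (the constitutive androstane receptor) did not pass, at -0.03 ± 0.0778, -0.03 ± 0.0648 and 0.08 ± 0.354, and NR1I3, near 1 CPM, changed sign with ERCC scaling.

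**Figure D5:**
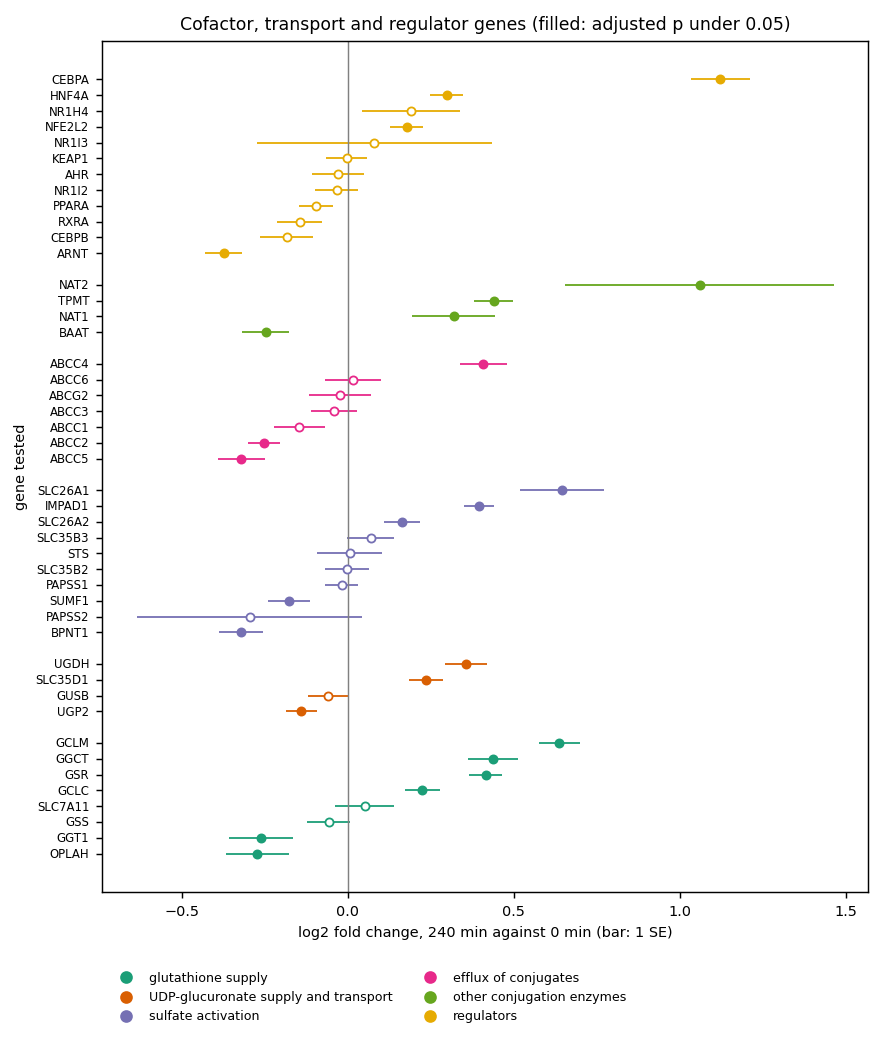
Log2 fold change at 240 min against 0 min for the 45 tested genes of cofactor supply, transport, other conjugation and regulation, coloured by list, with bars of 1 SE. Filled points mark the 25 genes with an adjusted p under 0.05, from -0.37 for ARNT to 1.12 for CEBPA.

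The IR library held 1971 peaks and has no replicate. Peaks within 5 kb of the gene body were found at 4 of the 54 members, beside 9.71% of the 26364 genes. Among members tested in the RNA-seq they stood at 2 of 29, beside 15.7% of the 13852 genes. The peak at GSTZ1 (chr14:77787126-77787797 in hg19) had a score of 249 and covered the listed start of the gene, with its centre 98 bases after the start that HOMER used, and it also overlaps the first exon of the divergent gene POMT2. The peak at SULT1A1 (chr16:28621318-28621688) had a score of 38, below the median of 79, and was centred 1262 bases before the start HOMER used, within the gene as the abundance tables list it. It overlaps the first exon of another annotated SULT1A1 transcript (chr16:28621252-28621365, minus strand) and covers the start of that transcript. GSTZ1 did not pass at any time and SULT1A1 fell at 240 min. The other 2 members were SULT1A3 and SULT1A4, whose listed span, chr16:29471207-30215650, covers both copies and the genes between them. The 7 peaks in it are each annotated to another gene.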

How the data were processed

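RNA-seq of 10 HepG2 libraries was analysed, grouped by the times in their titles. The authors trimmed reads with Trim Galore 0.6.4, aligned them to hg19 with STAR 2.6.1d and deposited raw counts per gene from featureCounts 1.6.4, counted as reverse-stranded. The authors also deposited StringTie abundances as TPM, with FPKM and coverage columns that were not used. For the IR library the authors called peaks with MACS2 2.2.7.1 and deposited a HOMER table with a score for each peak. Counted reads and TPM came apart for some genes that share sequence, so both are given. How either treats a read that fits several genes was not tested. Sums of near-identical genes add counted reads only and recover no read that was left uncounted. Per-gene coordinates come from the abundance tables.

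Members and gene lists were chosen with earlier results of these data known. The 92 ERCC rows (1.59% to 2.36% of counts) were kept out of the totals and of each test. Testing used edgeR 4.0.16 in R 4.3.3 (TMM, filterByExpr with time as group, quasi-likelihood test, 1 model of 10 libraries without a block, Benjamini-Hochberg over 13852 genes, threshold 0.05). CPM are counts scaled to library size after TMM. SE are the fold change over the root of its F value. Standard deviations are over 2 libraries. On simulated data for 240 min against 0 min (13724 genes) the test recovered 76% of genes changed by 0.5 and 96% changed by 1 on the log2 scale, and 2.82% of its calls were false. Only 200 genes, each averaging at least 1 CPM, were changed, whereas 41.0% of genes were called in the data. Spread followed the trend with level, without differences between genes. These rates therefore do not cover members below 1 CPM.

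Values in every library are given for each member called in any comparison and the 10 of highest mean TPM. Of the other lists, at most 2 rises and 2 falls called at 240 min are named, with 5 regulators. A few genes of these lists are not reported here. Genes named beyond that were chosen after their values were seen. Alternatives were DESeq2 1.42.0, limma 3.58.1 on log2(TPM + 1), also for genes averaging 1 TPM or more, and on log2(TPM + 0.1), no filter, at least 10 counts in every library, RLE, ERCC scaling, a replicate block, only the times compared, thinning to the smallest library, near-identical genes summed, and each library left out in turn. For peaks they were 1 and 20 kb, scores above the median and HOMER's nearest gene. Same-numbered replicates did not deviate together (r across genes from -0.115 to 0.133), so they were not treated as pairs. Stretches of 50 bases were compared between transcripts of the GENCODE annotation of GRCh37, as an approximation to the annotation the authors used. Figures were drawn with matplotlib 3.10.9. Counting intervals and limits cover counting error only.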

Additional observations from a re-analysis of the deposited data

Results flagged for a closer look

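For 6 of the 29 tested members the change at 240 min differed from that at 30 min by a test of the difference itself (edgeR, 240 min against 30 min), on the log2 scale. Over the 13852 genes tested, 38.2% were called in this comparison. The difference was 0.32 for SULT1C2, -1.32 for SULT1C4, -0.19 for SULT2A1, 0.35 for UGT2B10, 0.20 for GSTA4 and -0.19 for MGST2, with adjusted p-values of 0.0153, 2.22e-06, 0.0404, 0.000634, 0.0420 and 0.00929. SULT1C4 lay lower in 2 of 2 libraries at 240 min than in both at 30 min, and the libraries of SULT2A1 overlapped.

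In the deposited TPM values, which the count test does not use, 3 members without a counted read had a signal. Their means were 56.2 TPM for SULT1A3, 21.0 TPM for SULT1A4 and 2.87 TPM for GSTT2. GSTT2 ranged from 1.74 to 3.81 TPM, and limma on genes averaging 1 TPM or more called it between 30 and 240 min.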

How the results depend on the processing

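The 0 members called at 5, 10 and 30 min stayed at 0 in each of the 21 alternatives. With ERCC scaling 1 member was called at 240 min, 1 between 30 and 240 min and 1 over the 5 times (SULT1C4 each time), and 1 of the cofactor, transport and regulator genes at 240 min. This scaling moved the median of all genes by -0.33 at 10 min, -0.13 at 30 min and -0.12 at 240 min, and the calls over all genes at 240 min went from 5676 to 1059. Between 30 and 240 min that median lay at 0.013, and calls over all genes went from 5297 to 917. ERCC reads made up 1.59% and 1.59% of counts in the 0 min replicates, 1.73% and 2.36% at 10 min, and 1.65% and 1.91% at 240 min. Why calls were lost was not tested. Over the 5 times limma called 3 members on log2(TPM + 1), 2 on log2(TPM + 0.1), and 2 on log2(TPM + 1) for genes averaging 1 TPM or more. Without a filter 2 of the cofactor, transport and regulator genes were called at 5 min. Leaving out each library in turn gave 5 to 8 members at 240 min, 2 to 7 between 30 and 240 min (2 without 30 min replicate 1), 5 to 8 over the 5 times (5 without 5 min replicate 2), and 18 to 24 of the other genes at 240 min. HOMER's nearest gene gave 2 members with an IR peak, as did leaving out SULT1A3 and SULT1A4, a choice made after seeing the data.

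With the replicate block 7 members were called at 240 min, 6 between 30 and 240 min, 8 over the 5 times and 25 of the other genes, and 0 at the earlier times. The block changed no call of a member. It was not taken as a pairing, since same-numbered libraries did not deviate together.

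Signs at 240 min turned only for named genes that did not pass in that comparison. At 240 min, with ERCC scaling, UGT2A3 was -0.0272, GSTM3 -0.0269 and NR1I3 -0.0112. With limma AHR was 0.0132 on log2(TPM + 1), with or without the minimum, and 0.0134 on log2(TPM + 0.1), and NR1I3 was -0.543, with or without the minimum, and -1.81. Leaving out each library in turn gave ranges of -0.0121 to 0.169 for UGT2A3, -0.184 to 0.0493 for GSTT1, -0.0739 to 0.0140 for AHR, -0.0914 to 0.0261 for NR1I2 and -0.358 to 0.728 for NR1I3. The causes were not tested. With 2 libraries per time, a lone library is assumed to vary like those of other times, and members with few reads could show only large changes.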
